A study of Mus musculus with 189 samples.

Results

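The genes described here are 52 components of the lysosome, chosen by gene name: 10 proteases, 16 glycosidases, lipid hydrolases and cofactors, 10 proteins of the membrane and of cholesterol transport, 14 subunits of the proton pump and the transcription factors Tfeb and Tfe3. All 52 were found among the 46078 gene rows. Of these, 51 reached the minimum of 5 CPM (reads per 1000000 reads on endogenous genes) in at least 1 group, as did 10556 genes in all; Tfeb did not. They were measured in single peritoneal cells. The cells came from 4 female mice of strain C57BL/6, with no treatment or allele named. Both groups were sorted with the signs Lin-, c-Kit+ and FcεRI+, so both carried the stem cell factor receptor and the IgE receptor of mast cells. Mature mast cells (94 cells, below also mature cells) were low for integrin β7 with high side scatter, a sign of dense granules, and basophil-mast cell progenitors (BMCPs, 95 cells) were high for integrin β7 with low side scatter.

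The lysosome is the acidic organelle in which cells break down proteins, glycans and lipids. A proton pump, the V-ATPase, acidifies it by coupling ATP hydrolysis in a cytosolic V1 sector to proton movement through a membrane V0 sector, and soluble hydrolases work at that low pH. Tfeb and Tfe3 are related transcription factors that bind an E-box element and switch on many lysosomal genes. The secretory granules of mast cells are lysosome-related organelles: they are acidic and contain lysosomal enzymes beside their own proteases, and CD63 reaches the cell surface when they are released.

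No label ties a cell to a mouse, plate or index kit. Each group was therefore 1 pooled sample without replicates, no test was made, and intervals cover counting error only. The 94 mature cells held 561600 to 2152221 endogenous reads, and the 93 BMCPs kept held 344022 to 2091665. BMCP numbers 6 and 93, with 3978 and 36972 reads, were left out. Mast cell markers had reads in both groups for 8 of 8 genes. The libraries labelled BMCP numbers 46 and 80 went against their label. Their 8 mast cell markers summed to 350 and 476 CPM, against at least 27317 CPM in every other kept BMCP, and all 8 B cell markers had reads in each, at a summed 101562 and 94959 CPM. No mature cell passed 1357 CPM of that list. Among the other BMCPs, numbers 55, 16 and 18 did, at 7442.5, 1577 and 1474 CPM. Numbers 46 and 80 held 91.3% of the BMCPs' B cell marker reads. Macrophages, which are rich in lysosomes and abundant in this cavity, left little trace. Of 12 macrophage markers, 6 (Adgre1, Csf1r, C1qb, C1qc, Fcgr1 and Timd4) were at 0 reads in both groups. Icam2 had 1604 reads in 11 mature cells and 4901 in 25 BMCPs, and Lyz2 had 412 reads in 3 mature cells. Cd68, which is also in the list of other lysosomal genes below, had 298 reads in 3 BMCPs. Cd14 and C1qa had 1 read each in mature cells, and Mrc1 had 9 reads in BMCPs. The summed macrophage list ran from 0 to 268 CPM in mature cells and from 0 to 717 CPM in BMCPs, with a median of 0 in each.

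As a set, the lysosomal genes were present at near-equal levels in the sequenced RNA of the pooled mature cells and the pooled BMCPs, and a few members stood apart. The BMCP pool was mixed. The granzyme B gene Gzmb reached 100 CPM in 60 of 93 BMCPs and 0 of 94 mature cells. The chymase gene Mcpt4 did in 38 of 93 and 91 of 94. Pooled ratios average over such cells. Together the members took 2.16% of pooled endogenous reads in mature cells and 1.91% in BMCPs. Without cathepsin D alone the shares were 1.57% and 1.52%. The median log2 ratio of the 51 members, computed as mature CPM + 1 over BMCP CPM + 1, was -0.00495, beside -0.25 for all 10556 genes tested. Of the 51 members, 37 lay above that median of all genes (72.5%), and 31 lay within 0.5 of a ratio of 0.

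At least 2-fold higher in mature cells were 4 of 51 members (7.84%): Gla, Mcoln1, Lamp1 and Psap. The background share was 9.9% of all genes tested. At least 2-fold higher in BMCPs were 5 of 51 (9.80%): Ctss, Ctsh, Lgmn, Ctsc and Gm2a. There the background share was 19.2%. The first share lay near its background and the second below it. For Ctsh, Ctss and Lgmn the difference came from a few BMCPs, mainly numbers 46 and 80, and without these libraries the BMCP count was 3. The remaining 42 members stayed within 2-fold. Scaled instead to spike-in RNA (the ERCC scaling described next), 18 members were past 2-fold toward mature cells and 3 toward BMCPs. That scaling also moved the median of all genes from -0.25 to 0.63. The share of all genes past 2-fold under it is not given, so these 2 counts have no background beside them.

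How the total is scaled moved most ratios in the same direction. The median of all genes went from -0.25 to -0.01 with TMM factors, to -0.05 when a list of 10 granule and mast cell genes was left out of the totals and to 0.63 with the ERCC spike-in RNA added to each well. It was 0.44 when BMCP number 55, rich in ERCC reads, was left out of that factor. On totals without that list Ctsh (-5.00), Ctss (-5.07) and Lgmn (-2.91) moved further toward BMCPs, and the other 48 members toward mature cells. The 9 directions named above held under each of these scalings, but members near 0 did not keep theirs: 23 of 51 ratios were above 0 on CPM, 36 with TMM and 46 with ERCC scaling. Relative to all genes, the members' median was 0.25 higher in mature cells, and this excess was 0.25 with TMM and 0.28 with ERCC scaling. It was 0.02 when genes with any read were admitted.

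**Figure D1:**
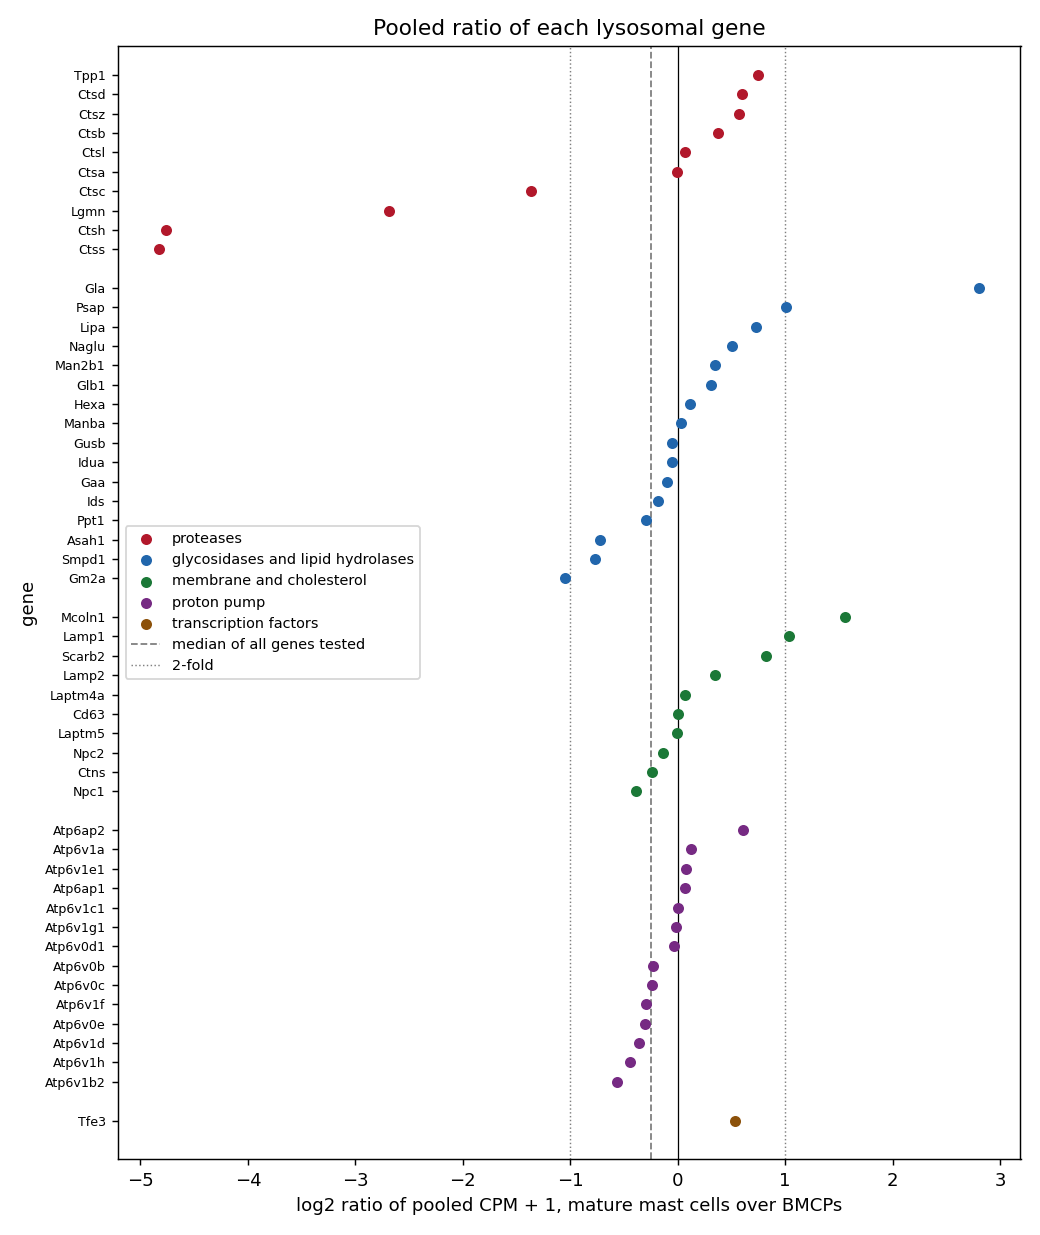
Log2 ratio of pooled CPM + 1 in mature cells over BMCPs (x axis) for each of the 51 lysosomal genes that reached 5 CPM, grouped and coloured by role and ordered by ratio. The dashed line is the median of all genes tested, -0.25, and the dotted lines mark 2-fold. The 14 proton pump genes lie between -0.56 and 0.60, whereas proteases run from -4.82 to 0.75. The lowest proteases, Ctss, Ctsh and Lgmn, had their BMCP reads mainly in numbers 46 and 80, and the next, Ctsc, lies at -1.36.

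The proteases gave the widest spread, from -4.82 to 0.75, through Ctss, Ctsh and Lgmn, whose BMCP reads lay in few cells. Apart from these genes the lowest protease was Ctsc at -1.36. The glycosidases, lipid hydrolases and cofactors, from -1.05 to 2.81, then spread more widely. The 10 protease genes took 0.830% of reads in mature cells and 0.611% in BMCPs, with a median log2 ratio of 0.03. At least 2-fold higher in BMCPs were 4 (40%, beside 19.2% of all genes tested), and 0 in mature cells (beside 9.9%). Of the 4, Ctsh and Lgmn were no longer past 2-fold without BMCP numbers 46 and 80. Ctsd (ENSMUSG00000007891; chr7:142375911-142388038, GRCm38, minus strand) encodes cathepsin D, the main aspartic protease of lysosomes. It was the most abundant member, also per exon length, at 2500 RPKM (CPM divided by exon length in kilobases) in mature cells and 1653 RPKM in BMCPs.

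Ctsd CPM per cell ran from 548 through a median of 5535 to 16086 in mature cells. In BMCPs it ran from 8.19 through 3379 to 13120. The groups overlapped over most of their range, but 3 BMCPs, numbers 11, 40 and 80, lay under 20 CPM and no mature cell did. Pooled Ctsd was 5877 CPM (95% Poisson interval 5864 to 5891) in mature cells and 3887 CPM (3876 to 3899) in BMCPs, for a log2 ratio of 0.60. Of Ctsd exon bases, 34.4% are shared with the overlapping gene model Gm49369, and whether counting used the strand is not given in the sources used here.

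Tpp1 (ENSMUSG00000030894; chr7:105744811-105752235) encodes tripeptidyl peptidase 1, which trims tripeptides from protein ends. It ran from 0 through a median of 806 to 2766 CPM in mature cells and from 0 through 367 to 2781 CPM in BMCPs. At least 100 CPM was reached in 82 of 94 mature cells (87.2%, exact interval 78.8 to 93.2) and in 58 of 93 BMCPs (62.4%, 51.7 to 72.2). The tops of the ranges were alike, and the groups differed in how many cells were near 0. The pooled log2 ratio was 0.75, the highest of the proteases.

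Ctsc (ENSMUSG00000030560; chr7:88278085-88310888) encodes cathepsin C, the dipeptidyl peptidase that activates chymases, granzymes and other serine proteases of granules. Mature cells ran from 0 through a median of 181 to 1062 CPM. BMCPs ran from 0 through 414 to 3284 CPM. Here similar shares of cells carried the gene, 54 of 94 mature cells (57.4%, 46.8 to 67.6) and 53 of 93 BMCPs (56.99%, 46.3 to 67.2) at 100 CPM, and the BMCPs that had it reached higher. Pooled Ctsc was 215 CPM (212 to 218) in mature cells against 554 (550 to 558) in BMCPs, which gave a log2 ratio of -1.36. With ERCC scaling it was -0.45, less than 2-fold.

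Ctsb, the cathepsin B gene, had medians of 380 CPM in mature cells and 252 CPM in BMCPs, within ranges of 0 to 2410 and 0 to 1915 CPM. Its pooled log2 ratio was 0.37. Ctsa, which encodes the carboxypeptidase that protects β-galactosidase and neuraminidase, had medians of 297 and 264 CPM within 0 to 1551 and 0 to 2365 CPM. Its pooled log2 ratio was -0.00495, and the groups overlapped. Ctsz, an exopeptidase, had a ratio of 0.57 and Ctsl, an endopeptidase, 0.06. Overlapping gene models cover 17.4% of Ctsa, 12.8% of Ctsb and 26.8% of Ctsl exon bases.

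Ctsh, Ctss and Lgmn, which encode cathepsin H, cathepsin S and the asparaginyl endopeptidase legumain, are proteases known from antigen-presenting cells. In mature cells they had 6, 5 and 3 reads in all, and no cell passed 1.83 CPM. BMCP medians were also 0 CPM for each. Of the 3282 Ctsh reads of BMCPs, number 80 held 1813 and number 46 held 1465, the 2 libraries with reads of all 8 B cell markers. Of the 3408 Ctss reads, number 80 held 2740, number 37 held 424 and number 14 held 237. All 668 Lgmn reads came from number 80. Pooled Lgmn was 0.0252 CPM (0.00521 to 0.0738) in mature cells and 5.59 CPM (5.17 to 6.03) in BMCPs. The pooled log2 ratios of -4.76 for Ctsh, -4.82 for Ctss and -2.68 for Lgmn thus rested on at most 3 of 93 cells each, apart from single reads elsewhere. Without numbers 46 and 80 Ctsh was 0.02 and Lgmn 0.04, and Ctss was -2.67 without number 80. Numbers 14 and 37, which also had Ctss, held reads of only 2 and 1 of the 8 B cell markers.

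**Figure D2:**
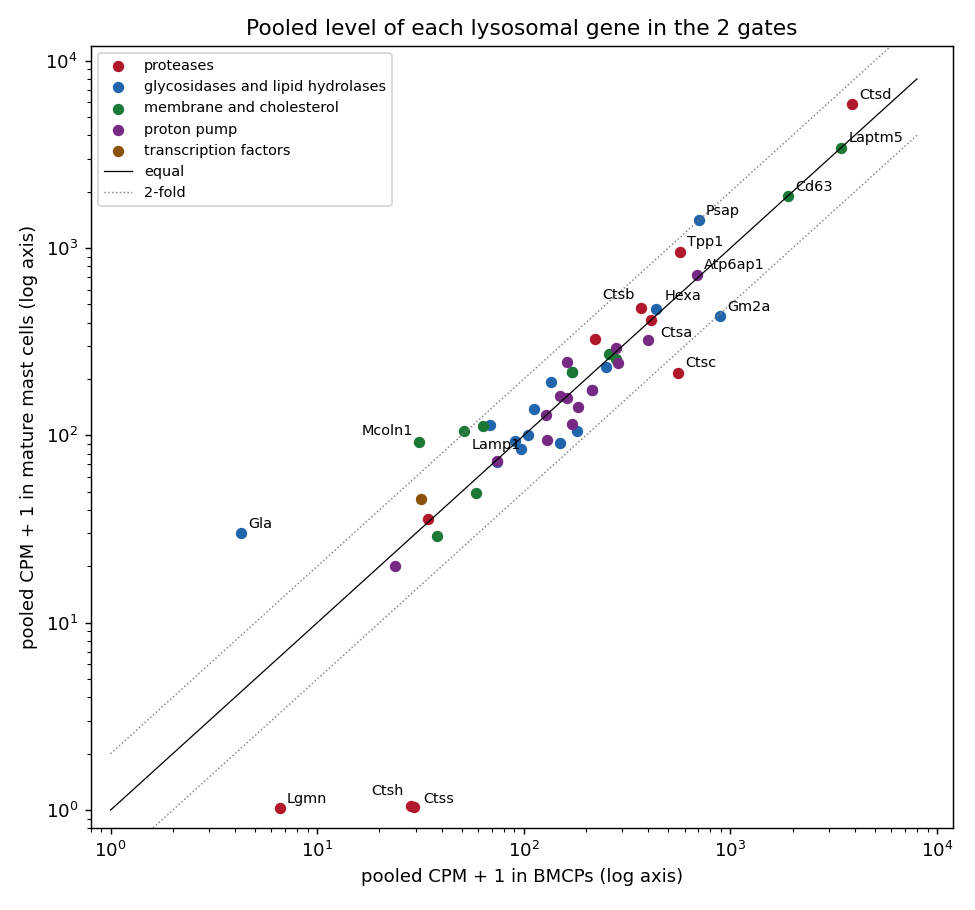
Pooled level of each of the 51 lysosomal genes in BMCPs (x axis) and mature cells (y axis), both in CPM + 1 on log axes, coloured by role. The solid line marks equal levels and the dotted lines 2-fold. Of the abundant genes, Laptm5 and Cd63 lie at the line of equality, and Ctsd lies above it (log2 ratio 0.60). Ctsh, Ctss and Lgmn lie at the bottom because mature cells held 6, 5 and 3 of their reads.

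The 16 glycosidases, lipid hydrolases and cofactors took 0.395% of reads in mature cells and 0.367% in BMCPs. Their median log2 ratio was -0.00962. Past 2-fold in favour of mature cells were 2 members (12.5%, beside 9.9% of all genes tested), and 1 in favour of BMCPs (6.25%, beside 19.2%). The members that differed most included both sphingolipid activator proteins, small cofactors that lift glycolipids out of membranes for the hydrolases. They differed in opposite directions.

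Psap (ENSMUSG00000004207; chr10:60277627-60302597) encodes prosaposin, the precursor of the saposins. Its level ran from 1.47 through a median of 1371 to 3502 CPM in mature cells and from 0 through 536 to 3459 CPM in BMCPs. All but 2 mature cells reached 100 CPM (92 of 94, 97.9%, 92.5 to 99.7), whereas 62 of 93 BMCPs did (66.7%, 56.1 to 76.1). The ranges overlapped, and the 31 BMCPs under 100 CPM had almost no counterpart among mature cells. Pooled Psap was 1412 CPM (1405 to 1419) and 701 CPM (696 to 705), a log2 ratio of 1.01 that lay on the 2-fold line and was 0.97 without mature cell number 73.

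Gm2a (ENSMUSG00000000594; chr11:55098115-55113029) encodes the GM2 activator, a cofactor in the breakdown of ganglioside GM2. Mature cells ran from 0 through a median of 379 to 1514 CPM. BMCPs ran from 0.663 through 572 to 3441 CPM. The groups overlapped, and similar shares reached 100 CPM, 78 of 94 (82.98%, 73.8 to 89.9) and 80 of 93 (86.02%, 77.3 to 92.3). Pooled levels of 432 CPM (428 to 436) and 895 CPM (889 to 900) gave a log2 ratio of -1.05. It was under 2-fold with TMM (-0.80), with ERCC scaling (-0.14) and without BMCP number 43 (-0.99).

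Hexa, which encodes the α chain of β-hexosaminidase, had medians of 415 CPM in mature cells and 169 CPM in BMCPs, within 0 to 1626 and 0 to 2025 CPM. Its pooled log2 ratio was 0.11, and the groups overlapped. At least 100 CPM was reached in 71 of 94 mature cells (75.5%, 65.6 to 83.8) and in 48 of 93 BMCPs (51.6%, 41.01 to 62.1). Of Hexa exon bases 12.8% overlap Tmem202.

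Gla (ENSMUSG00000031266; chrX:134588149-134601125) encodes α-galactosidase A and was the member with the largest ratio in favour of mature cells, at 2.81. It was a rare transcript. The median was 0 CPM in both groups, the highest cells had 420 and 364 CPM, and 100 CPM was reached in 9 of 94 mature cells (9.57%, 4.47 to 17.4) and 1 of 93 BMCPs (1.08%, 0.0272 to 5.85). Nearly all Gla reads of BMCPs, 389 of 393, lay in number 31, and without it the ratio was 4.86.

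The other 12 hydrolases lay between -0.77 and 0.73. Toward mature cells were Lipa, the acid lipase of cholesteryl esters, at 0.73, Naglu, which removes N-acetylglucosamine from heparan sulfate, at 0.50, Man2b1 at 0.34 and Glb1 (β-galactosidase) at 0.31. Toward BMCPs were Smpd1, the acid sphingomyelinase, at -0.77, Asah1, the acid ceramidase, at -0.73, and Ppt1, a thioesterase, at -0.29. Sphingomyelinase and ceramidase act in sequence. Both pooled ratios were below 0 under each scaling except ERCC scaling with all BMCPs, which gave 0.13 for Smpd1 and 0.18 for Asah1. Without BMCP number 55 in that factor they were near 0, at -0.07 and -0.02. Similar numbers of cells reached 100 CPM, 26 of 94 mature cells and 28 of 93 BMCPs for Smpd1 and 23 and 22 for Asah1. For Asah1, BMCP number 53 held 2610 of the 17780 BMCP reads. For Smpd1, BMCP number 46, a library that went against its label, held 2263 of the 21432 BMCP reads. Gaa, Gusb, Idua, Ids and Manba, which digest glycogen, glycosaminoglycans and mannosides, were within 0.18 of 0.

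The 10 membrane and cholesterol transport genes took 0.645% of reads in mature cells and 0.629% in BMCPs, with a median log2 ratio of 0.03. They joined the steadiest and some of the most uneven members. Cd63 (ENSMUSG00000025351; chr10:128900989-128912822), the tetraspanin of lysosome and granule membranes, ran from 804 through 1818 to 3668 CPM in mature cells. BMCPs ran from 3.43 through 1819 to 4619 CPM. The medians differed by less than 1 CPM, and a pseudogene, Cd63-ps, could share reads with the gene. Every mature cell and all but 3 of 93 BMCPs were above 100 CPM, and those 3 were numbers 40, 46 and 80. Pooled levels were 1893 CPM (1885 to 1901) and 1894 CPM (1886 to 1902), a log2 ratio of -0.000612.

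Laptm5 (ENSMUSG00000028581; chr4:130913125-130936141), a lysosomal transmembrane protein of blood cells, was the second most abundant member. Its range was 13.2 through 3440 to 7091 CPM in mature cells and 87.8 through 3035 to 9778 CPM in BMCPs. Nearly every cell had it at 100 CPM, 93 of 94 and 92 of 93. The pooled log2 ratio was -0.00863, and the groups overlapped, although BMCPs were more spread, with quartiles of 2136 and 4374 CPM against 2815 and 4061 CPM in mature cells.

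Mcoln1 (ENSMUSG00000004567; chr8:3500457-3515232) encodes the calcium channel mucolipin 1, which releases lysosomal calcium and takes part in activating Tfeb. Its median was 0 CPM in both groups, and its highest cells had 774 CPM in mature cells and 613 CPM in BMCPs. It reached 100 CPM in 24 of 94 mature cells (25.5%, 17.1 to 35.6) and in 7 of 93 BMCPs (7.53%, 3.08 to 14.9), with overlapping ranges. Pooled levels of 91.2 CPM (89.5 to 92.9) and 30.3 CPM (29.3 to 31.3) gave a log2 ratio of 1.56, which lay between 1.44 and 1.85 when any single cell was left out.

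Lamp1 (ENSMUSG00000031447; chr8:13159161-13175338) encodes a major glycoprotein of the lysosomal membrane. Its median was 1.96 CPM in mature cells and 0 CPM in BMCPs, with highest cells of 989 and 728 CPM. The 100 CPM level was reached in 24 of 94 (25.5%, 17.1 to 35.6) and 12 of 93 cells (12.9%, 6.85 to 21.5), and the ranges overlapped. The log2 ratio of 1.04 was 0.86 without mature cell number 49 and 0.81 as a ratio of means over cells, both under 2-fold. Lamp2, its paralogue, was at 0.35, and Scarb2, the receptor that carries glucocerebrosidase to lysosomes, at 0.82. Npc1, the cholesterol exporter, had the lowest ratio of the membrane genes, -0.39 (0.50 with ERCC scaling). It was sparse, with medians of 0 CPM, highest cells of 680 and 934 CPM and 9 and 8 cells at 100 CPM. Without mature cell number 93 it was -0.94, and without BMCP number 11 it was -0.0852 and no longer the lowest. Npc2, its soluble partner, was at -0.14, Ctns, the cystine exporter, at -0.24 and Laptm4a at 0.07.

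**Figure D3:**
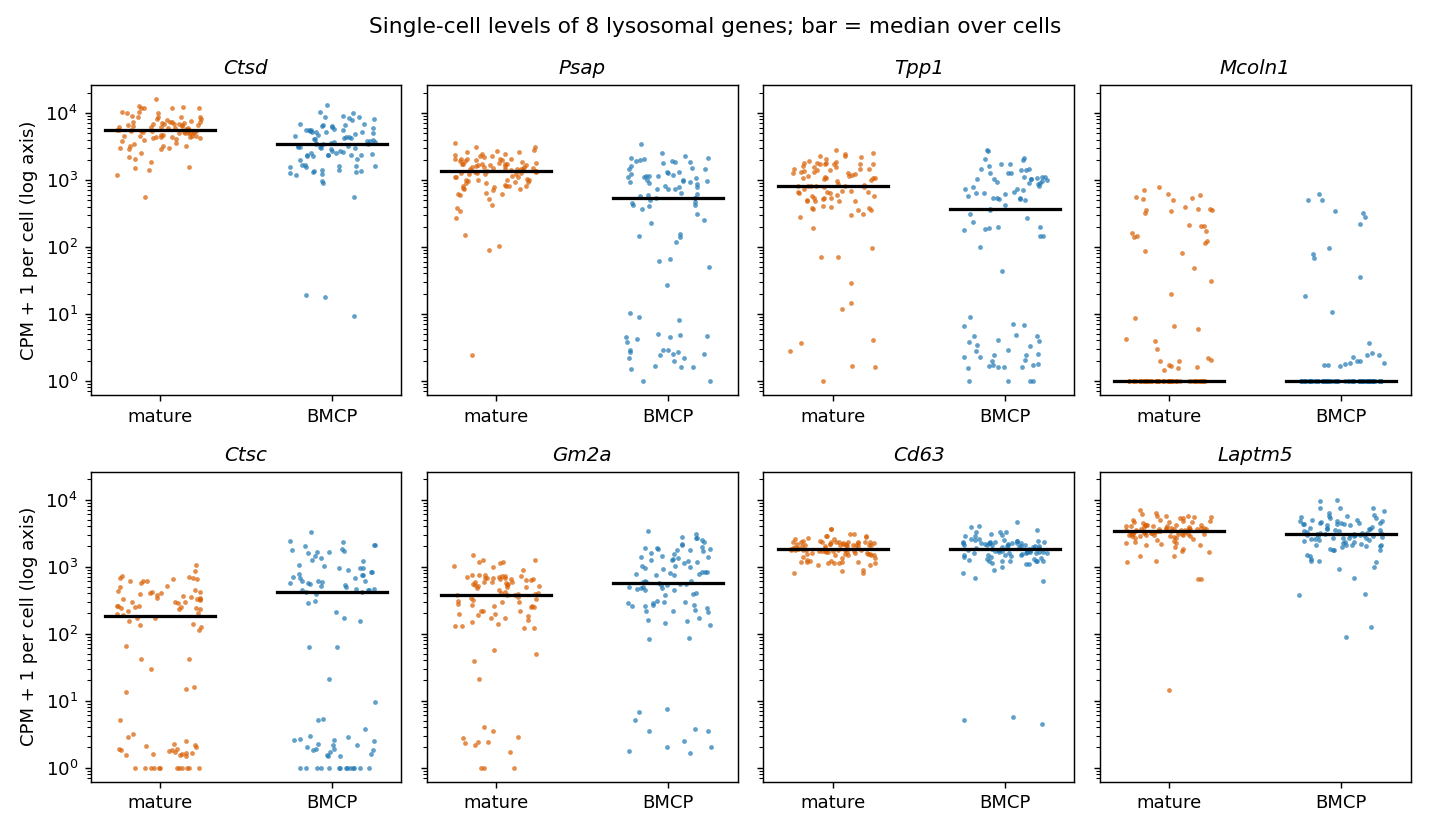
CPM + 1 per cell on a log axis for 8 lysosomal genes in the 94 mature cells and the 93 kept BMCPs, with a black bar at the median over cells. Cd63 and Laptm5 overlap almost fully, Psap and Tpp1 have many BMCPs near 0, and the BMCPs with Ctsc or Gm2a reach higher than the mature cells, with tops of 3284 and 3441 CPM against 1062 and 1514 CPM.

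The proton pump was the most even group. Its 14 genes took 0.288% of reads in mature cells and 0.304% in BMCPs. In either direction 0 of 14 passed 2-fold, beside 9.9% of all genes tested toward mature cells and 19.2% toward BMCPs. With ERCC scaling Atp6ap2 (1.51) and Atp6v1a (1.03) were past 2-fold toward mature cells, and without BMCP number 55 in that factor Atp6ap2 (1.31) alone was. The median log2 ratio was -0.13, which is 0.12 above the median of all genes, and its sign was positive under TMM, ERCC and granule-free scaling. The 4 genes of the membrane sector V0 lay between -0.31 and -0.03, and the 8 V1 genes of the ATP-hydrolysing sector between -0.56 and 0.12.

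The accessory gene Atp6ap1 (ENSMUSG00000019087; chrX:74297097-74304721), whose product helps assemble the pump, was the most abundant of them. It ran from 0 through 606 to 2478 CPM in mature cells and from 0 through 586 to 3001 CPM in BMCPs, with a log2 ratio of 0.07. Atp6ap2 (chrX:12587801-12617049), the other accessory subunit, is also known as the prorenin receptor. It had the highest ratio of the pump, 0.60, or 0.76 without BMCP number 46, which held 2322 of its 19288 BMCP reads. Its median was 215 CPM in mature cells and 1.45 CPM in BMCPs within 0 to 1287 and 0 to 1138 CPM, and 100 CPM was reached in 54 of 94 mature cells (57.4%, 46.8 to 67.6) and 32 of 93 BMCPs (34.4%, 24.9 to 44.98). The ranges overlapped.

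Atp6v1b2 (chr8:69088646-69113711), the nucleotide-binding B subunit of most tissues, had the lowest ratio, -0.56 (0.34 with ERCC scaling). Its median was 0.294 CPM in mature cells and 0 CPM in BMCPs, and the highest cells had 710 and 3733 CPM. More mature cells than BMCPs reached 100 CPM, 31 of 94 against 24 of 93, so the pooled ratio and the cell shares pointed in opposite directions. BMCP number 11 held 3586 of the 20306 BMCP reads, and without it the ratio was -0.30. Atp6v0c, a proteolipid of the V0 ring, was the lowest in level at 19.1 and 22.8 CPM and has the pseudogenes Atp6v0c-ps1 and Atp6v0c-ps2, so reads may be split among copies.

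Of the transcription factors, Tfe3 (ENSMUSG00000000134; chrX:7762560-7775202) was detected in a minority of cells. Its median was 0 CPM in both groups, its highest cells had 434 CPM in mature cells and 622 CPM in BMCPs, and 15 of 94 and 8 of 93 cells reached 100 CPM (15.96%, 9.22 to 24.95, and 8.60%, 3.79 to 16.2). The pooled log2 ratio was 0.53. Tfeb (ENSMUSG00000023990; chr17:47737030-47792419) had 478 reads in 3 mature cells, 476 of them in number 73, and 0 reads in BMCPs. A count of 0 allows up to 3 reads in the pooled BMCPs. In either group Tfeb was thus not detectable in nearly all cells at this depth. Mitf, another member of the family and a regulator of mast cell genes, had 97.4 pooled CPM in the mature group, 126 in the BMCP group and a log2 ratio of -0.37.

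The E-box core of this family, CACGTG, and its longer form TCACGTGA were searched on both strands in RefSeq promoter windows of 300 bases (250 before to 50 after the start, GRCm38.p6), together with the variant TCATGTGA. Windows were found for 44 of the 52 genes. TCACGTGA contains CACGTG, so their counts overlap. CACGTG was in 14 of 44 members (31.8%) and in 8.09% of 27025 genes with a window. TCACGTGA was in 7 of 44 (15.9%) and in 1.12% of genes, and TCATGTGA in 5 of 44 (11.4%) and in 1.15%. The 27025 genes include many that did not reach the minimum of 5 CPM here. No share over the 10556 genes tested is given, so the 2 sets are unlike. Sites are shown for 6 members because they come from genes with different ratios, with the 8-base element in capitals, 5′ to 3′ on the gene's strand and 30 bases each.
Ctsd, chr7:142387908-142387937, minus strand: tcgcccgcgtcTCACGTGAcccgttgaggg
Mcoln1, chr8:3500462-3500491, plus strand: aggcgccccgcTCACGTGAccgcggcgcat
Gla, chrX:134601182-134601211, minus strand: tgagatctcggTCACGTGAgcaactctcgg
Ctsa, chr2:164833766-164833795, plus strand: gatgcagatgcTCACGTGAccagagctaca
Atp6v0d1, chr8:105566050-105566079, minus strand: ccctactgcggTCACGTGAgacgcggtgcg
Tpp1, chr7:105752213-105752242, minus strand: ccagaccatgcTCATGTGActtatcacatg
The element sat 99 bases before the start of Ctsd, 46 before that of Mcoln1, 195 before that of Gla and 4 before that of Atp6v0d1. It sat 5 bases after the start in both Ctsa and Tpp1. The same 8 letters stood in promoters of genes with log2 ratios of 2.81 (Gla), 1.56 (Mcoln1), 0.60 (Ctsd), -0.00495 (Ctsa) and -0.03 (Atp6v0d1). Members with CACGTG had a median ratio of 0.09 (14 genes) and those without it -0.000612 (29 genes). For TCACGTGA the medians were 0.12 (7 genes) and 0.02 (36 genes), and for TCATGTGA they were -0.24 (5 genes) and 0.05 (38 genes). A match to letters is a description and not a site of binding.

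Pooled levels hid a difference in how many cells carried the genes. Among the 51 members, 43 reached 100 CPM in a larger share of mature cells than of BMCPs (84.3%), and 8 in a larger share of BMCPs. Over all genes tested, 52.2% had the larger share in mature cells. The count was again 43 after every cell was thinned to 100000 reads, and 40 without BMCP numbers 46 and 80. Of the 21 members with a pooled ratio within 0.25 of 0, 18 had the larger share in mature cells (85.7%), beside 69.3% of all such genes. Laptm4a is an example, at 77 of 94 mature cells (81.9%, 72.6 to 89.1) and 53 of 93 BMCPs (56.99%, 46.3 to 67.2) with a pooled ratio of 0.07. The median member reached 100 CPM in 41.5% of mature cells and 32.3% of BMCPs. For the median of all genes tested these were 8.51% and 8.60%, so the background holds sparser genes than the members. No share for genes of like level is given.

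**Figure D4:**
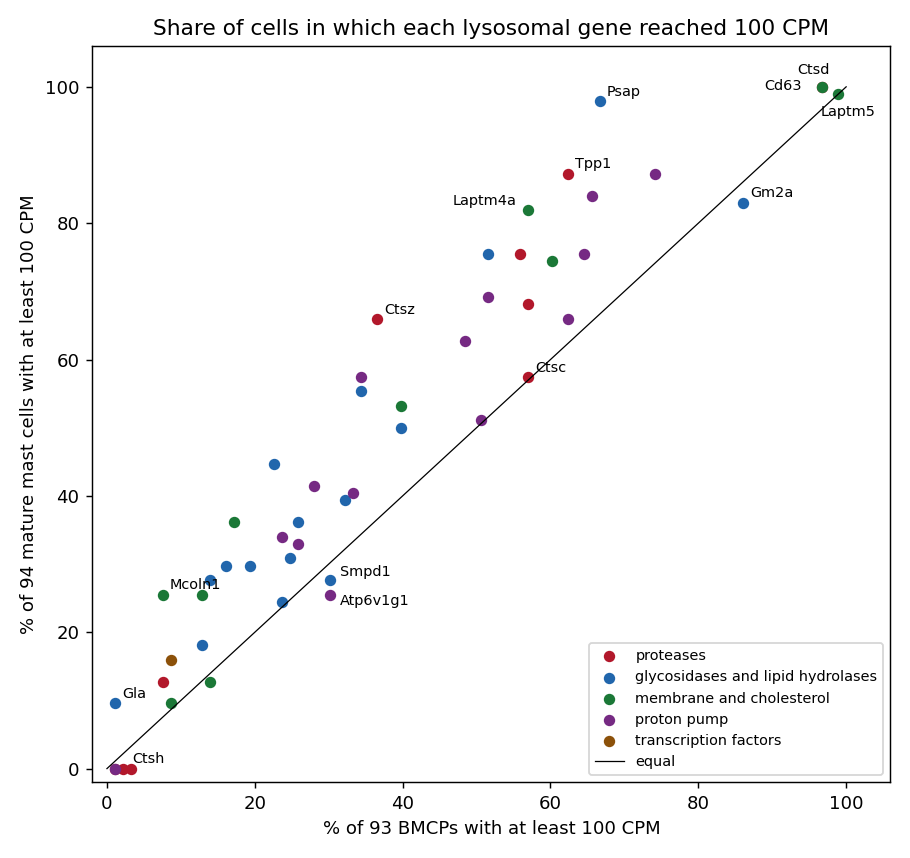
Percentage of the 93 BMCPs (x axis) and of the 94 mature cells (y axis) in which each of the 51 lysosomal genes reached 100 CPM, coloured by role, with a line at equal shares. Of the genes plotted, 43 lie above the line, among them Psap at 97.9% against 66.7% and Tpp1 at 87.2% against 62.4%.

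Counted per cell after thinning to 100000 reads, a median of 30 members was detected in mature cells (range 15 to 38) and 23 in BMCPs (7 to 37). Mature cells also had more genes of any kind, a median of 2894 against 2474. As a share of detected genes the members made up 0.992% and 0.933%. The median ratio of endogenous to ERCC reads was 939 in mature cells and 562 in BMCPs. The part of this in the cell shares was not tested.

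Among BMCPs, the Ctsd level was higher in cells with more reads of a granule list. The list held the protease genes Cma1, Tpsb2, Cpa3 and Mcpt4, Srgn for the granule proteoglycan core, Ndst2 and Hdc for heparin and histamine synthesis, Slc18a2 for amine transport, and Mrgprb1 and Mrgprb2. The last pair encode cell surface receptors, not granule contents, and had 3764 and 1428 pooled CPM in mature cells and 1100 and 1779 in BMCPs, against 93353 and 56528 for Cma1. Granule share was the summed percentage of reads of these 10 genes, which ran from 0.113% to 33.8% over BMCPs, with a median of 17.03%, and from 14.3% to 36.9% over mature cells, with a median of 28.2%. Levels were recomputed on totals without those 10 genes, since a large granule share lowers every other CPM. Across 93 BMCPs Ctsd had a Spearman coefficient of 0.73 and a Pearson coefficient of 0.62 with granule share. The 99th percentile of 4643 genes was a Spearman coefficient of 0.50. Across 94 mature cells the Spearman coefficient of Ctsd was 0.06. These are descriptions across cells, which share library depth and RNA content and are not replicates.

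Other members with a positive coefficient in BMCPs were Laptm5 at 0.48, Tpp1 at 0.46, Ids at 0.45 and Hexa at 0.40, each above the 95th percentile of 0.29. Laptm5 was at 0.30 when the granule list stayed in the totals. In all, 8 of the 41 members with reads in at least 30% of BMCPs lay above that percentile (19.5%). Ctsc was the lowest, at -0.26. The coefficient with Gzmb, the granzyme B gene, which reached 100 CPM in 60 of 93 BMCPs and in 0 of 94 mature cells, was -0.53 for Ctsd and 0.31 for Ctsc. Ctsd and Mcpt4, a chymase of connective tissue mast cells, had a coefficient of 0.59. Without BMCP numbers 46 and 80, which were also the 2 cells farthest from the median granule share, Ctsd kept 0.72 with granule share. Granule share itself had a coefficient of 0.33 with endogenous reads per ERCC read among BMCPs, and Ctsd one of 0.40. Their part in the relation was not tested.

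**Figure D5:**
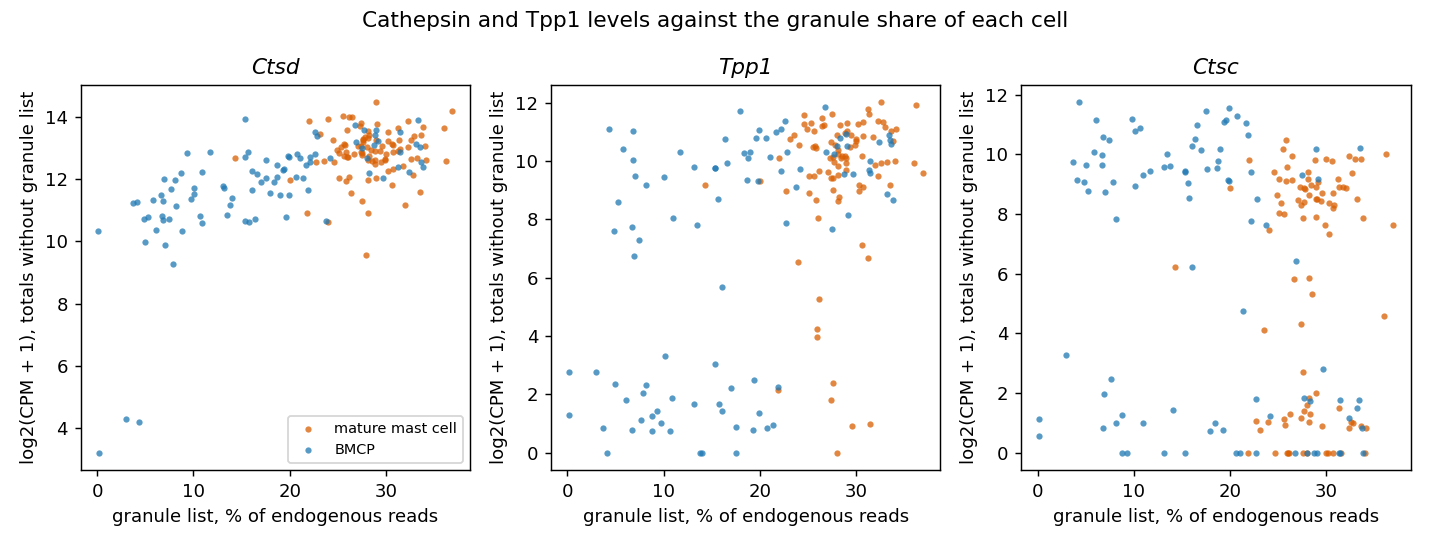
Level of Ctsd, Tpp1 and Ctsc per cell, as log2(CPM + 1) on totals without the granule list (y axes), against the percentage of endogenous reads on the 10 genes of the granule list (x axis), with 1 point per cell for 94 mature cells and 93 BMCPs. In BMCPs Ctsd is higher at larger granule shares (Spearman coefficient 0.73), whereas Ctsc is not (-0.26). BMCPs with Tpp1 near 0 lie at shares up to 21.9%, and cells with Ctsc near 0 lie at low and high shares.

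Within a group, most pairs of members had low coefficients. No background over pairs of other genes is given. Some members, such as Gusb and Idua, had medians of 0 CPM in both groups, so low coefficients do not show independent variation. The members' summed share of reads outside the granule list, in which Ctsd is the largest part, had a coefficient of 0.77 with granule share across BMCPs. Across mature cells it was 0.05. The median Spearman coefficient over 946 pairs of members was 0.02 in mature cells, and over 820 pairs in BMCPs it was 0.04. The highest pair in mature cells was Ctsd with Cd63, at 0.41, and the highest in BMCPs was Ctsd with Laptm5, at 0.48.

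Beyond the 52, other genes of the same organelle were counted from lists. Of 55 other lysosomal genes, 46 reached the minimum, with a median log2 ratio of 0.11, and 8 were at least 2-fold higher in mature cells (17.4%, beside 9.9% of all genes tested) and 3 in BMCPs (6.52%, beside 19.2%). The first group included Plbd2, a phospholipase B-like protein, at 2.03, with 37 of 94 mature cells and 11 of 93 BMCPs at 100 CPM. It also included Laptm4b at 1.53 and Gnptg, a subunit of the transferase that makes the mannose 6-phosphate tag, at 1.26. Arsg (2.89), Galc (2.16), Slc36a1 (1.82) and Igf2r (1.70) had 100 CPM in at most 2 cells of a group. Leaving out 1 mature cell took Galc to 0.69 (number 21), Igf2r to 0.68 (number 67) and Slc36a1 to 1.21 (number 61). The second group held Ctsg, cathepsin G, a serine protease of granules. It ran from 0 through 2.92 to 6870 CPM in mature cells and from 0 through 247 to 8015 CPM in BMCPs, for a log2 ratio of -1.55, or -0.64 with ERCC scaling. Acp2 was at -1.31, at -0.86 without BMCP number 91 and at -2.17 without mature cell number 93, and Galns was at -2.15 and -0.42 without number 80.

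The other lists held fewer genes past 2-fold. Of 13 other proton pump subunits, 5 reached the minimum, and the a-subunit genes Atp6v0a1, Atp6v0a2 and Tcirg1 lay between -0.38 and -0.10. Only Atp6v1g2 passed 2-fold, at 2.65 with 4 mature cells at 100 CPM (1 of 5, 20%, beside 9.9% of all genes tested). Of 18 genes of the Tfeb family and its regulation, 16 reached the minimum and 15 stayed within 2-fold. Mtor, the kinase that holds Tfeb in the cytosol, was at -2.29, with 235 and 1625 reads. It was the 1 of 16 past 2-fold toward BMCPs (6.25%, beside 19.2% of all genes tested). Of its BMCP reads, 2 cells held 858 and 670, and 2 of 93 BMCPs reached 100 CPM. Without number 95, the first of these cells, the ratio was -1.34. Among 24 genes that build lysosome-related organelles, 1, Lyst, was 2-fold higher in mature cells (4.17%, beside 9.9% of all genes tested). Lyst was at 1.00, or 0.52 without mature cell number 74. In BMCPs 3 were 2-fold higher (12.5%, beside 19.2%). These were Hps3 at -1.38 (-0.76 without BMCP number 40, -2.52 without mature cell number 86), Rab27a at -1.10 and Rab38 at -6.94. Rab27a was under 2-fold with TMM (-0.86), with ERCC scaling (-0.21), on totals without the granule list (-0.91) and without BMCP number 27 (-0.89). Hps3 and Acp2 were also under 2-fold with ERCC scaling. Rab38, a small GTPase that sorts enzymes to melanosomes and related organelles, had 9 reads in 9 mature cells. In BMCPs it had 15716 reads in 33 cells and reached 100 CPM in 14.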

How the data were processed

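Single-cell cDNA made from poly(A) RNA by oligo-dT priming was amplified with 23 PCR cycles and sequenced as 50 bp single-end reads, per the labels' protocols. The authors deposited raw read counts per gene, with no normalization. The tools named, per the submitters' processing notes, are GSNAP 2015-09-29 and HTSeq 0.5.3p3 on mm10. There were no molecular identifiers, so PCR copies count as reads. Annotation release and strand setting are not given in the sources used here. Symbols, exon lengths and coordinates came from GENCODE M21 and promoters from RefSeq, both on GRCm38.

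Cells with at least 100000 endogenous reads were kept. Counts were summed per group and scaled to CPM, and ratios are log2 of CPM + 1 for genes that reached 5 CPM in a group. The labels name 4 mice but tie no cell to one, so no test was made. Poisson and Clopper-Pearson intervals are at 95% and cover only counting error, as does the limit of 3 reads for a count of 0. Doublets were not called, since each well received 1 cell. Reads without a feature, 12.5% of the table in the mature group and 16.2% in BMCPs, stayed out of totals. Scripts were tested on simulated counts. Values per cell are given for members past 2-fold, the 10 most abundant members, the extremes of each role, Tfeb and Tfe3, and list genes are named when past 2-fold, except 1 that is not reported here. Of 25 genes listed for organelle biogenesis, 1 (Pldn) was not matched. Members and lists were chosen with earlier results of these data known. Alternatives used Python 3.11.15 and edgeR 4.0.16 (TMM factors only).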

Additional observations from a re-analysis of the deposited data

How the results depend on the processing

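No paired analysis was possible because the cells' numbers name cells only and no test was made. The median log2 ratio of the members (-0.00495) was 0.24 with TMM factors, 0.91 with ERCC scaling, 0.71 with ERCC scaling without BMCP number 55, 0.20 on totals without granule genes, 0.25 relative to all genes and 0.18 from medians over cells. In the same order the proteases gave 0.27, 0.93, 0.73, 0.23 and 0.28, and 0.47 with a minimum of 50 CPM. Leaving out 1 cell moved them between -0.0742 and 0.18. The hydrolases gave 0.23, 0.89, 0.70, 0.19, 0.24 and 0.72, and 0.0987 from means over cells, and between -0.0441 and 0.15 without 1 cell. The membrane genes gave 0.28, 0.95, 0.74, 0.24 and 0.28. The proton pump gave 0.11, 0.78, 0.58, 0.0703, 0.12 and 0.26, and -0.0325 at 50 CPM. The summed reads (0.18) gave 0.42, 1.09, 0.89, 0.38, 0.43 and 0.48. ERCC scaling put 18 members past 2-fold toward mature mast cells and 3 toward BMCPs, 16 and 3 without number 55. Medians over cells gave 12 and 1, means over cells gave 2 toward mature mast cells, and a 50 CPM minimum gave 2 toward BMCPs. The share of all genes past 2-fold is not given beside these alternative counts. Without 1 cell the first count was 2 to 4 and the second 4 to 5. Without BMCP numbers 46 and 80 the second was 3, and Ctsh (0.0224) and Lgmn (0.0360) reversed. Leaving out each cell in turn gave -2.71 to 0.0360 for Lgmn, the latter without number 80, the BMCP with most of its reads. The cause was not tested, except that the reads of Ctsh and Lgmn lay in the libraries left out. Values within 0.1 log2, or counts within 1.5 times, were taken as unmoved. Of the summaries' alternative values, 70 were unmoved and 50 moved. Leaving out numbers 46 and 80 was planned from an earlier analysis, while correlations with granule genes kept in the totals or without those cells were added after seeing the data. Depth was checked by thinning every cell to 100000 reads, where Gla had at least 10 reads in 9 mature cells and 1 BMCP, Mcoln1 in 24 and 8, and Tfeb in 1 and 0, beside 9 and 1, 24 and 7, and 1 and 0 at 100 CPM before thinning.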
